A study of Mus musculus with 27 samples.

Results

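The genes of the collagen chains were followed through TGF-β treatment of NMuMG cells and through depletion of lamin B1. They were chosen by symbol alone, as every gene whose name has the form of Col, a number, a and a number, which gave 44 of the 24892 gene symbols in the RNA-seq tables. NMuMG cells are an epithelial line from normal mammary gland of the mouse, and TGF-β, a secreted growth factor, drives them into the epithelial to mesenchymal transition (EMT). RNA-seq was done on parental cells (6 libraries) and on cells that carried either an irrelevant control shRNA or an shRNA against lamin B1 (12 libraries, called control and KD cells). Each kind of cells was taken without TGF-β and after 8 h and 24 h of it, with 2 biological replicates per group, and the sample labels give the dose as 1 to 5 ng/ml for the whole series. Lamin B1 ChIP-seq and ATAC-seq of parental cells gave 1 library per time point each. All groups share 1 cell line, grown with serum and insulin, and both control and KD cells were infected with an shRNA. Depletion was partial: Lmnb1, the gene of lamin B1, had 7.79 and 8.14 FPKM in the KD libraries at 8 h against 32.8 and 32.1 FPKM in control libraries.

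Collagens are secreted proteins built of 3 chains wound into a triple helix, and each gene of the family encodes 1 kind of chain. Fibrillar chains form the cables of connective tissue, network chains such as those of collagen IV build the sheet of the basement membrane under epithelia, and beaded-filament, fibril-associated (FACIT), anchoring and multiplexin chains link these structures to each other and to cells. Epithelial cells are known mainly for basement membrane collagens, and rising fibrillar collagen is a common feature of EMT.

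A few sequences locate the chains that the results turn on. Col4a1 and Col4a2 start back to back on chromosome 8, and their first exons overlap by the 22 bases at chr8:11312805-11312826 (mm9, plus strand), shown because a single lamin B1 peak covered both starts at every time point.
Col4a1 and Col4a2: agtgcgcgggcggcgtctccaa
The next sequences are the 200 bases before the annotated start of Col5a3, Col7a1 and Col5a1, the 3 chains with the largest rises at 24 h, and of Col18a1, the most abundant chain. They are written 5′ to 3′ on the gene's own strand, and each window lay wholly inside an ATAC peak at 24 h. Capitals mark GGGCGG, the GC box, and CAGAC, the core of the motif that SMAD proteins bind, on either strand.
Col5a3, chr9:20619512-20619711, minus strand: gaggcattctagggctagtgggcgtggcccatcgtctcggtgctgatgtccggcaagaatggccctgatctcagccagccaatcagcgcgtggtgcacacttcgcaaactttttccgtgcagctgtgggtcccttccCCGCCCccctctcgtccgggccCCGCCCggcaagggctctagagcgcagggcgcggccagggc
Col7a1, chr9:108855431-108855630, plus strand: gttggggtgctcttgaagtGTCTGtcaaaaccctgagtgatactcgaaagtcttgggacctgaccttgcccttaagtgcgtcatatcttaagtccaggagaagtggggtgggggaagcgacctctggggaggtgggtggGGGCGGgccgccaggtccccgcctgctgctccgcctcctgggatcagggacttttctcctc
Col5a1, chr2:27741745-27741944, plus strand: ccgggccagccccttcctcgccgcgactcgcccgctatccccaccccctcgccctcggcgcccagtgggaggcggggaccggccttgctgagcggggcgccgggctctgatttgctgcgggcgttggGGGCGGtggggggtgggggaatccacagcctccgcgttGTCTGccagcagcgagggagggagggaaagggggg
Col18a1, chr10:76629294-76629493, minus strand: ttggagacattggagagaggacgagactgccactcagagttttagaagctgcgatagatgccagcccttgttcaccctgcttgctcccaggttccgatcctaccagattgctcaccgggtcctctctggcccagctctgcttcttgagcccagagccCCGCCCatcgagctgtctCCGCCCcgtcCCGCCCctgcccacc
All 4 windows held the GC box, and Col7a1 and Col5a1 also held CAGAC. Of windows of the same length before 21966 genes, 38.8% held the GC box and 34.1% held CAGAC. Among the 44 collagen genes the counts were 22 and 18 windows. The AP-1 motif TGANTCA was in no collagen window and in 4.89% of all windows, and the letters TATAAA were in 4 collagen windows and in 9.68% of all. These motif searches read both strands, the motifs do not overlap each other in the printed windows, and a match is a description of the letters only. The median GC content was 60.8% over the collagen windows and 55.8% over all windows.

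Most collagen genes were silent or low in these cells. In FPKM (fragments mapped to a gene scaled by its length and by the library's total, as deposited), 17 of the 44 reached at least 1 FPKM in at least 2 parental libraries and were tested, and 15 did so in the 12 control and KD libraries. Of these, 14 were tested in both tables, 26 genes were tested in neither, and the highest value among those 26 was 0.933 FPKM. The filter lets in genes through the group where they are high: 2 of the 17 and 5 of the 15 were under 1 FPKM in every untreated library. In the shRNA table Col6a3 reached 1 FPKM in the control libraries at 8 h only, and Col11a1 in the KD libraries at 24 h only. Under 0.1 FPKM in every library were 19 genes of the parental table and 21 of the shRNA table. The tested genes of the parental table were 6 of 11 fibrillar, 2 of 6 basement membrane network, 3 of 6 beaded-filament and 2 of 9 FACIT chains, both multiplexins, the anchoring fibril chain and 1 of 3 short-chain network genes. None of the 4 transmembrane chains was tested. Counts of called genes below are over tested genes only and cannot speak for the silent ones. In bulk RNA, a change in the number of cells that make a transcript and a change in its amount per cell cannot be told apart.

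Each library held one dominant chain. Col18a1, a multiplexin of the epithelial basement membrane whose C-terminal fragment is endostatin, led in all 18 libraries with 35.7% to 56.1% of the summed collagen FPKM, and the leading 4 chains together held 74.1% to 91.2%. The sum over the 44 genes was 283 and 298 FPKM in untreated parental libraries, 414 and 406 FPKM at 8 h, then 702 and 716 FPKM at 24 h. In control cells the sum went from 206 and 209 FPKM to 667 and 672 FPKM at 24 h, and in KD cells from 227 and 225 FPKM to 660.2 and 725 FPKM. Every 24 h library therefore lay above every 8 h library, and every 8 h library above every untreated one, in all 3 kinds of cells.

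**Figure D1:**
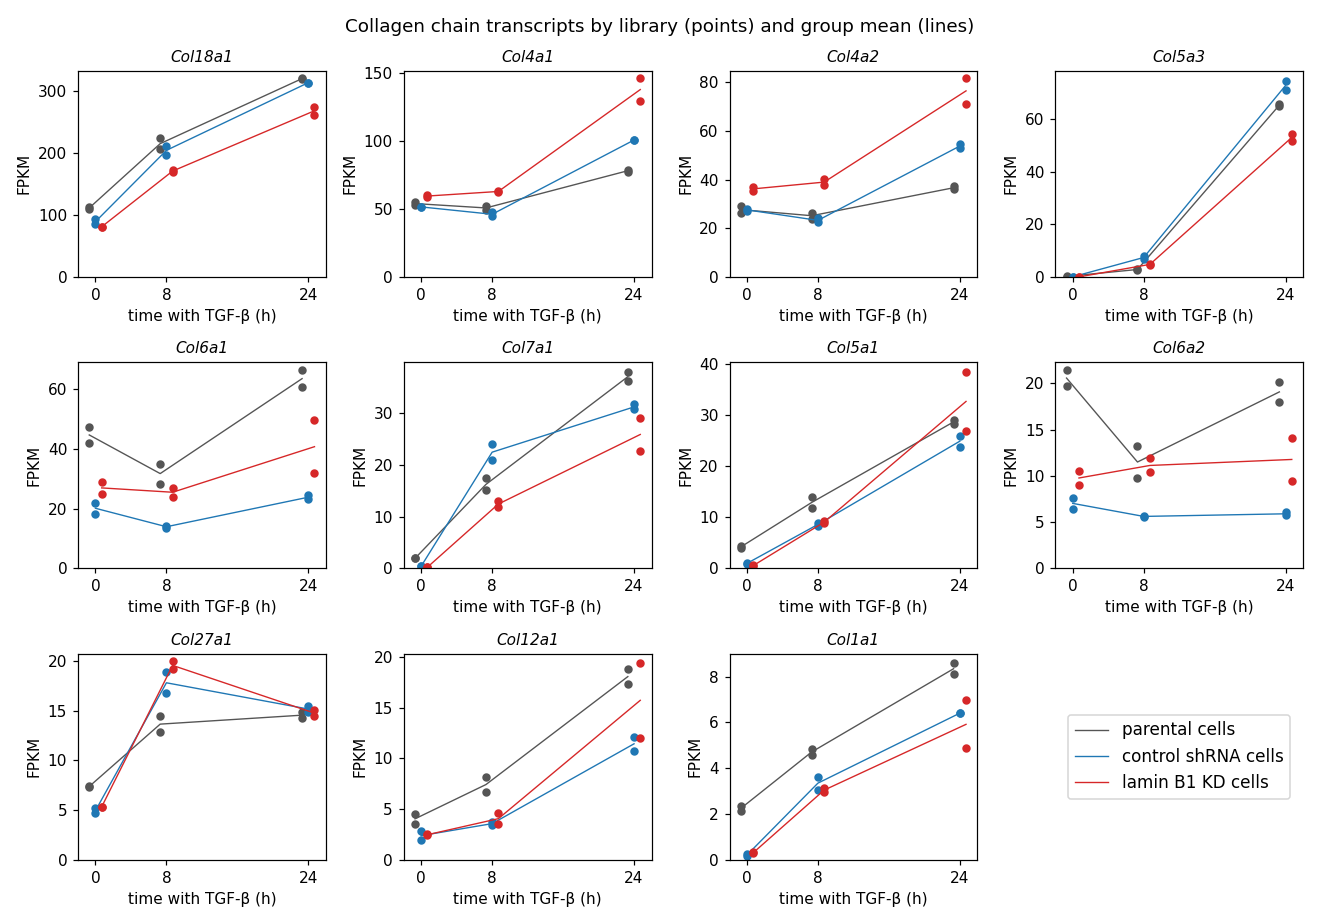
FPKM (linear axis from 0) against time with TGF-β for the 11 collagen genes with a group mean of at least 5 FPKM, with a point per library and a line through the group means, and the 3 kinds of cells drawn slightly apart in time for clarity. Col18a1 lay between 80.8 and 321 FPKM and led throughout, and Col5a3 went from under 0.3 FPKM in every untreated library to between 51.8 and 74.8 FPKM at 24 h.

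In parental cells treated for 24 h, 14 of the 17 tested collagen genes rose and none fell. Over all 11309 genes tested, 70.5% were called at an adjusted p under 0.05 (limma, Benjamini-Hochberg adjusted over all genes), 33.4% higher and 37.1% lower. The median difference on the log2(FPKM + 1) scale was 0.60 over the 17 genes and -0.02 over all genes. Of the 17 genes, 2 (Col5a3 and Col6a3) were under 1 FPKM in every untreated library. They entered the counts through treated libraries and had little room to fall. At 8 h, 10 collagen genes rose and 3 fell, where 54.5% of all genes were called, 22.4% higher and 32.1% lower. Quantile normalization moved the share of higher calls among all calls at 8 h from 41.1% to 50.5%. Between 8 h and 24 h, 11 rose and 1 fell, against 51.8% of all genes called, 27.7% higher and 24% lower. These 11 include Col6a1 and Col6a2, which had fallen at 8 h, and Col4a1 and Col4a2, which were not called at 8 h.

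The fibrillar chains with the largest rises were Col5a3 and Col5a1 of collagen V. Col5a2, also a chain of collagen V, was too low to be tested, with means of 0.278, 0.330 and 0.352 FPKM in untreated, 8 h and 24 h parental cells. Col5a3, the third chain of collagen V, a minor fibrillar collagen that sets fibril diameter, had 0.136 and 0.221 FPKM in untreated parental libraries, 3.07 and 2.58 FPKM at 8 h, then 65.7 and 65.2 FPKM at 24 h. The 3 groups did not overlap, and most of the rise came after 8 h. On the log2(FPKM + 1) scale the difference was 1.70 ± 0.08 (SE) at 8 h (adjusted p = 2.9e-05) and 5.82 ± 0.08 at 24 h (adjusted p = 1.3e-07), the largest of the family. Col5a1, the chain present in most collagen V molecules, had 3.91 and 4.47, then 13.9 and 11.9, then 28.2 and 29.1 FPKM. It rose by 1.42 ± 0.08 at 8 h and 2.52 ± 0.08 at 24 h (adjusted p = 4.3e-05 and 1.0e-06). Because Col5a3 started lower and ended higher, the ratio of Col5a1 to Col5a3 in FPKM went from 28.9 and 20.3 in untreated libraries to 0.429 and 0.446 at 24 h.

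Col1a1, the main chain of collagen I, was a minor transcript here, with 2.37 and 2.12 FPKM in untreated libraries, 4.84 and 4.58 FPKM at 8 h, then 8.57 and 8.11 FPKM at 24 h. It rose by 0.82 ± 0.07 and 1.53 ± 0.07 (adjusted p = 0.00012 and 2.4e-06), with no overlap between groups. Col1a2, its partner chain in collagen I, moved little, from 1.64 and 1.43 FPKM to 2.22 and 1.90 FPKM, and its rise of 0.27 ± 0.08 at 24 h (adjusted p = 0.021) was lost when the second untreated library or the first 24 h library was left out (adjusted p = 0.11 and 0.16). Col27a1, a fibrillar chain known from cartilage, had 7.31 and 7.45 FPKM untreated, 14.4 and 12.8 FPKM at 8 h, then 14.2 and 14.8 FPKM at 24 h. Its rise of 0.80 ± 0.06 was complete at 8 h, and the difference between 24 h and 8 h was 0.09 ± 0.06 (adjusted p = 0.28).

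Col7a1, the single gene of the anchoring fibrils that tie the basement membrane to the stroma, responded early. It had 1.97 and 1.92 FPKM in untreated libraries, 17.4 and 15.1 FPKM at 8 h, then 36.2 and 38.0 FPKM at 24 h. The rises were 2.55 ± 0.07 at 8 h, the largest of the family at that time, and 3.69 ± 0.07 at 24 h (adjusted p = 1.1e-05 and 2.6e-07). Col18a1 had 109.7 and 113 FPKM, then 224 and 206 FPKM, then 321 and 319.7 FPKM, so that this most abundant chain rose by 0.94 ± 0.05 and 1.52 ± 0.05 (adjusted p = 3.4e-05 and 8.4e-07). Col12a1, a FACIT chain on the surface of collagen I fibrils, had 3.55 and 4.54 FPKM, then 6.65 and 8.18 FPKM, then 17.3 and 18.8 FPKM. It rose by 0.74 ± 0.12 and 1.92 ± 0.12 (adjusted p = 0.0019 and 9.9e-06).

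The chains of the basement membrane network and of the beaded filaments took another course. Col4a1 and Col4a2, which join into the common form of collagen IV, did not pass the test at 8 h and rose at 24 h. Col4a1 had 53.1 and 54.8 FPKM untreated, 49.2 and 52.3 FPKM at 8 h, then 77.3 and 78.9 FPKM at 24 h, a rise of 0.53 ± 0.04 (adjusted p = 3.9e-05). Col4a2 had 26.4 and 29.0, then 23.9 and 26.4, then 36.0 and 37.3 FPKM, a rise of 0.39 ± 0.06 (adjusted p = 0.0011). At 8 h the differences were -0.09 ± 0.04 and -0.13 ± 0.06 (adjusted p = 0.13 and 0.12), and the ratio of Col4a1 to Col4a2 stayed between 1.89 and 2.15 in the 6 libraries.

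Col6a1 and Col6a2, which with Col6a3 form the beaded filaments of collagen VI around cells, dipped at 8 h. Col6a1 had 42.0 and 47.3 FPKM untreated, 28.4 and 35.1 FPKM at 8 h, then 60.7 and 66.4 FPKM at 24 h. Col6a2 had 19.6 and 21.5, then 9.73 and 13.3, then 17.97 and 20.2 FPKM. The falls at 8 h were -0.49 ± 0.10 for Col6a1 (adjusted p = 0.0070) and -0.80 ± 0.13 for Col6a2 (adjusted p = 0.0020), and that of Col6a1 was lost without the second untreated library (adjusted p = 0.053). At 24 h Col6a1 was 0.50 ± 0.10 above untreated cells (adjusted p = 0.0040), whereas Col6a2 was -0.10 ± 0.13 from them (adjusted p = 0.50) and its libraries overlapped with the untreated ones. Col6a3 went the other way at 8 h, from 0.358 and 0.424 FPKM to 1.98 and 1.73 FPKM, and reached 3.18 and 3.63 FPKM at 24 h (1.66 ± 0.08, adjusted p = 4.4e-06).

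The other tested chains stayed under 5 FPKM. Col16a1, a FACIT chain, rose from 1.71 and 1.91 FPKM to 3.19 and 3.26 FPKM at 8 h and was at 3.39 and 3.12 FPKM at 24 h. Col15a1, the second multiplexin, rose only in passing, from 2.18 and 2.11 FPKM to 4.45 and 3.74 FPKM at 8 h (0.69 ± 0.08, adjusted p = 0.00053), and was back at 1.79 and 1.66 FPKM at 24 h. Its fall from 8 h to 24 h was the only one of the family (-0.90 ± 0.08, adjusted p = 0.00016). Col3a1 and Col8a1 changed little: the rise of Col3a1 at 24 h (0.22 ± 0.07, adjusted p = 0.027) and the fall of Col8a1 at 8 h (-0.21 ± 0.07, adjusted p = 0.048) were each lost when single libraries were left out.

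**Figure D2:**
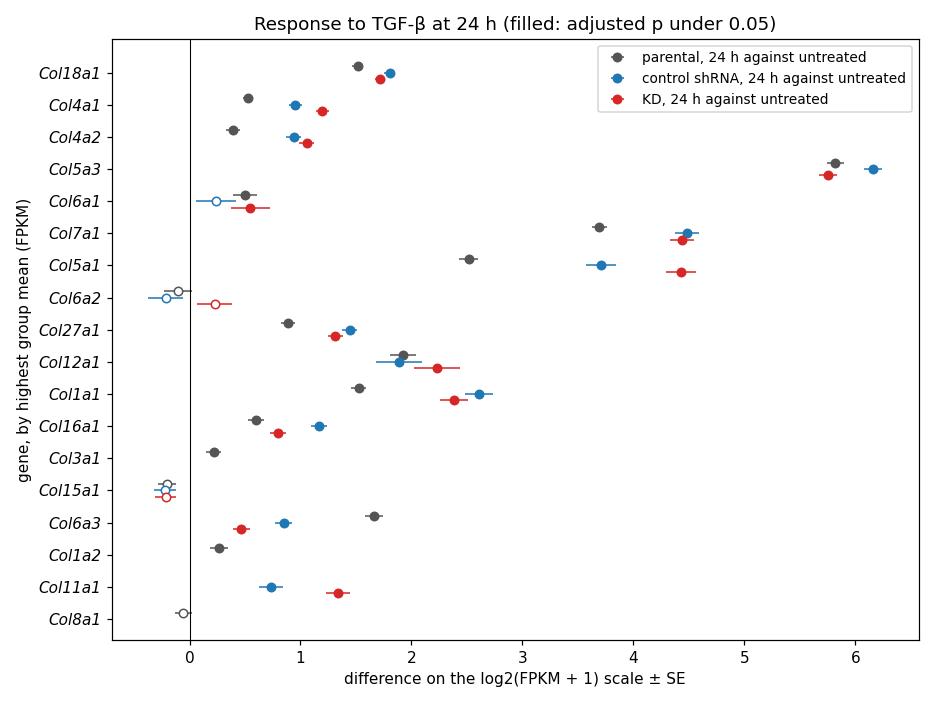
Difference between 24 h of TGF-β and untreated cells on the log2(FPKM + 1) scale, with its SE, for each tested collagen gene in parental, control and KD cells, with filled points at an adjusted p under 0.05. Col5a3 lay between 5.75 and 6.16 in the 3 kinds of cells, and Col6a2 and Col15a1 passed the test in none of them.

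The cells that carried an shRNA gave the response again in separate libraries. In control cells 12 of the 15 tested collagen genes rose at 24 h and none fell, where 70.7% of 11450 genes were called, 25.5% higher and 45.1% lower. At 8 h, 10 rose and 3 fell, against 64.3% of all genes called, 19.4% higher and 44.9% lower. In KD cells 13 rose and none fell at 24 h, against 71.9% of all genes called, 28.6% higher and 43.3% lower, and at 8 h 11 rose and none fell, against 67.8% called, 23% higher and 44.8% lower. The median difference at 24 h was 1.17 over the 15 genes in control cells and 1.31 in KD cells, with -0.13 and -0.10 over all genes. Of the 15 genes, 5 (Col1a1, Col5a3, Col6a3, Col7a1 and Col11a1) were under 1 FPKM in every untreated library. They entered these counts and medians through treated libraries and had little room to fall. Quantile normalization moved the median of all genes by 0.13 in control cells at 24 h, 0.12 in control cells at 8 h and 0.11 in KD cells at 8 h, and raised the share of higher calls among all calls from 36.1% to 49.9%, from 30.2% to 45.6% and from 33.9% to 46.6%. In KD cells at 24 h the share went from 39.8% to 50.2%.

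Col5a3 was close to silent in untreated control libraries, at 0.0276 and 0.0425 FPKM, and had 8.11 and 6.69 FPKM at 8 h, then 71.1 and 74.8 FPKM at 24 h. In KD libraries it had 0.00313 and 0.00543 FPKM, then 4.99 and 4.54 FPKM, then 54.5 and 51.8 FPKM. The groups of each time point did not overlap between control and KD cells, and the KD libraries were the lower ones. The rises at 24 h were 6.16 ± 0.08 in control cells (adjusted p = 2.2e-10) and 5.75 ± 0.08 in KD cells (adjusted p = 2.9e-10). Col7a1 had 0.395 and 0.491 FPKM in untreated control libraries, 24.0 and 21.0 FPKM at 8 h, then 30.8 and 31.8 FPKM at 24 h. In KD libraries it had 0.213 and 0.257, then 13.002 and 11.9, then 22.8 and 29.0 FPKM. In control cells most of this rise was thus reached by 8 h (4.02 ± 0.11 of 4.48 ± 0.11).

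Col5a1 rose from 0.935 and 1.02 FPKM in control libraries to 8.94 and 8.25 FPKM at 8 h, then 23.8 and 25.9 FPKM at 24 h, and in KD libraries from 0.515 and 0.569 FPKM to 9.25 and 8.83 FPKM and then 26.9 and 38.4 FPKM. Its differences at 24 h were 3.71 ± 0.13 and 4.43 ± 0.13 (adjusted p = 4.3e-08 and 1.5e-08). Col1a1 started at 0.239 and 0.188 FPKM in control libraries and reached 6.41 and 6.39 FPKM at 24 h, and in KD libraries it went from 0.336 and 0.284 FPKM to 4.86 and 6.97 FPKM. Col27a1 peaked at 8 h in both kinds of cells, at 18.8 and 16.7 FPKM in control and 19.9 and 19.1 FPKM in KD libraries. By 24 h it was at 15.4 and 14.9 FPKM in control and 14.4 and 15.0 FPKM in KD libraries.

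Col12a1, in contrast to Col7a1, rose mainly after 8 h. In control libraries it had 2.86 and 1.92 FPKM untreated, 3.74 and 3.40 FPKM at 8 h, then 10.7 and 12.1 FPKM at 24 h. In KD libraries it had 2.44 and 2.52, then 4.58 and 3.53, then 12.002 and 19.4 FPKM. The difference at 8 h was 0.44 ± 0.21 in control cells (adjusted p = 0.090) and 0.53 ± 0.21 in KD cells (adjusted p = 0.047), and the latter was lost without the first or the second untreated KD library or the first KD library at 8 h (adjusted p = 0.14, 0.12 and 0.23). Col11a1, a fibrillar chain tested only in this table, rose in both kinds of cells, to 0.713 and 0.903 FPKM in control and 1.45 and 2.16 FPKM in KD libraries at 24 h. Col16a1 rose at 8 h and 24 h and Col15a1 at 8 h only in both kinds of cells, as called by the same test.

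Col4a1 and Col4a2 fell slightly in control cells at 8 h, with differences of -0.16 ± 0.06 and -0.24 ± 0.07 on the log2(FPKM + 1) scale (adjusted p = 0.037 and 0.014), as did Col6a1 (-0.49 ± 0.18, adjusted p = 0.036). After quantile normalization, which moved the median of all genes up in this comparison, the 3 values were -0.05, -0.11 and -0.38 and none passed the test (adjusted p = 0.40, 0.21 and 0.079). At 24 h Col4a1 and Col4a2 were higher by 0.95 ± 0.06 and 0.94 ± 0.07 in control cells and by 1.20 ± 0.06 and 1.06 ± 0.07 in KD cells. Col6a1 was higher at 24 h by 0.24 ± 0.18 in control cells (adjusted p = 0.26) and by 0.55 ± 0.18 in KD cells (adjusted p = 0.021). The call in KD cells was lost without the second KD library at 24 h, with a value of 0.24 (adjusted p = 0.11), and without the second untreated KD library, with a value of 0.45 (adjusted p = 0.11). The difference between these responses of Col6a1 did not pass its own test (0.31 ± 0.25, adjusted p = 0.49).

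KD cells differed from control cells in both directions. For Lmnb1 the difference between KD and control cells was -1.73 ± 0.18, -1.90 ± 0.18 and -1.500 ± 0.18 on the log2(FPKM + 1) scale in untreated, 8 h and 24 h cells (adjusted p = 0.00057, 0.00019 and 0.00090). At 24 h Lmnb1 had 18.4 and 17.9 FPKM in control libraries, 4.37 FPKM in the first and 7.52 FPKM in the second KD library. In control cells it fell by 24 h of TGF-β (-0.82 ± 0.18, limma adjusted p = 0.0032). In untreated cells 3 of 15 collagen genes were higher in KD cells and none lower, a share of 20% beside 19.7% of all genes, of which 10.6% were higher and 9.09% lower. At 8 h, 4 were higher and 4 lower, or 53.3% beside 35.8% of all genes, of which 19.3% were higher and 16.5% lower. At 24 h, 5 were higher and 3 lower, again 53.3%, beside 28.3% of all genes, of which 16.8% were higher and 11.5% lower. These counts hold Col6a3, lower at 8 h and 24 h, and Col11a1, higher at 24 h. Col6a3 entered the test only through the control libraries at 8 h and Col11a1 only through the KD libraries at 24 h. The shares therefore partly reflect the filter. Without the second KD library at 24 h, 14 collagen genes could be tested, of which 4 were higher and 5 lower. No collagen gene differed by 2-fold or more on this scale at any time point, but the scale understates low genes. In FPKM, Col6a3 had means of 0.614 in KD and 1.35 in control cells at 8 h, and Col11a1 1.81 and 0.808 at 24 h. In untreated cells, adding 0.1 in place of 1 before the logarithm gave 3 genes higher and 3 lower.

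The chains higher in KD cells at 8 h were Col4a1, Col4a2, Col6a1 and Col6a2, the common chains of collagen IV and a pair of collagen VI. Col4a1 had 51.7 and 51.3 FPKM in untreated control libraries and 58.9 and 60.0 FPKM in KD libraries. At 8 h it had 47.6 and 44.6 FPKM against 63.0 and 62.7 FPKM, and at 24 h 100.5 and 101 FPKM against 129 and 147 FPKM. At each time both KD libraries lay above both control libraries, by 0.20 ± 0.06, 0.44 ± 0.06 and 0.45 ± 0.06 (adjusted p = 0.037, 0.00073 and 0.0011). Col4a2 had 27.2 and 27.9 FPKM against 35.3 and 37.1 FPKM in untreated cells, 24.1 and 22.4 FPKM against 37.7 and 40.2 FPKM at 8 h, then 54.5 and 53.1 FPKM against 71.2 and 81.8 FPKM at 24 h. It was higher by 0.38 ± 0.07, 0.72 ± 0.07 and 0.50 ± 0.07 (adjusted p = 0.0067, 0.00018 and 0.0015), and the ratio of Col4a1 to Col4a2 was 1.98 and 1.99 in control and 1.67 and 1.56 in KD libraries at 8 h. In untreated cells the call of Col4a1 was lost when any 1 of the 4 libraries was left out (adjusted p between 0.077 and 0.17), and that of Col4a2 without the second KD library (adjusted p = 0.060).

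Col6a1 had 21.9 and 18.4 FPKM in untreated control libraries and 28.8 and 25.1 FPKM in KD libraries, then 14.3 and 13.5 FPKM against 23.9 and 27.0 FPKM at 8 h, then 24.6 and 23.1 FPKM against 31.9 and 49.6 FPKM at 24 h. Col6a2 had 7.64 and 6.401 FPKM against 10.5 and 8.99 FPKM, then 5.57 and 5.66 FPKM against 10.4 and 11.9 FPKM, then 6.05 and 5.75 FPKM against 9.49 and 14.0 FPKM. The differences were 0.82 ± 0.18 and 0.72 ± 0.18 for Col6a1 at 8 h and 24 h (adjusted p = 0.0077 and 0.018) and 0.87 ± 0.16 at both times for Col6a2 (adjusted p = 0.0035 and 0.0051). In untreated cells neither passed the test (0.41 ± 0.18 and 0.42 ± 0.16, adjusted p = 0.15 and 0.092). At 24 h the second KD library stood apart from the first for several chains, and without it the differences were 0.40 for Col6a1 and 0.61 for Col6a2 (adjusted p = 0.042 and 0.0093). The call of Col6a1 at 8 h was lost without the second KD library of that time, with a difference of 0.74. Its call at 24 h was lost without the first or the second control library of that time, with differences of 0.76 and 0.67.

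The third chain of collagen VI did the opposite. Col6a3 had 1.44 and 1.27 FPKM in control and 0.627 and 0.601 FPKM in KD libraries at 8 h, and 0.870 and 0.978 FPKM against 0.347 and 0.539 FPKM at 24 h. The differences between KD and control cells were -0.54 ± 0.08 and -0.42 ± 0.08 (adjusted p = 0.0010 and 0.0051), with both KD libraries under both control libraries. Col6a3 had entered the test only through the control libraries at 8 h, the higher group. With no filter the adjusted p was 0.0013 at 8 h and 0.0053 at 24 h. Among the chains induced by TGF-β, Col5a3 was lower in KD cells, with differences of -0.54 ± 0.08 at 8 h and -0.45 ± 0.08 at 24 h (adjusted p = 0.0015 and 0.0048). Col7a1 was lower at 8 h (-0.80 ± 0.11, adjusted p = 0.00086), and at 24 h the difference was -0.27 ± 0.11 (adjusted p = 0.091).

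Col18a1 had 85.6 and 92.8 FPKM in untreated control and 81.1 and 80.8 FPKM in KD libraries, 211 and 198 FPKM against 172 and 169.9 FPKM at 8 h, then 314 and 314 FPKM against 275 and 262 FPKM at 24 h. It was lower in KD cells at 8 h and 24 h, with differences of -0.26 ± 0.05 and -0.23 ± 0.05 (adjusted p = 0.0044 and 0.011), and the call at 24 h was lost without either control library (adjusted p = 0.065 and 0.062). Col5a1, Col1a1, Col27a1 and Col12a1 passed the test at no time point, with differences between -0.36 and 0.39. Col11a1, which had entered the test only through the KD libraries at 24 h, was higher in them than in control libraries (0.63 ± 0.11, adjusted p = 0.0043, and 0.0080 with no filter), and this call was lost in a fit of only those groups (adjusted p = 0.081). Col16a1 was higher in untreated KD cells (0.27 ± 0.07, adjusted p = 0.034), a call lost without any 1 of the 4 libraries (adjusted p between 0.062 and 0.16).

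**Figure D3:**
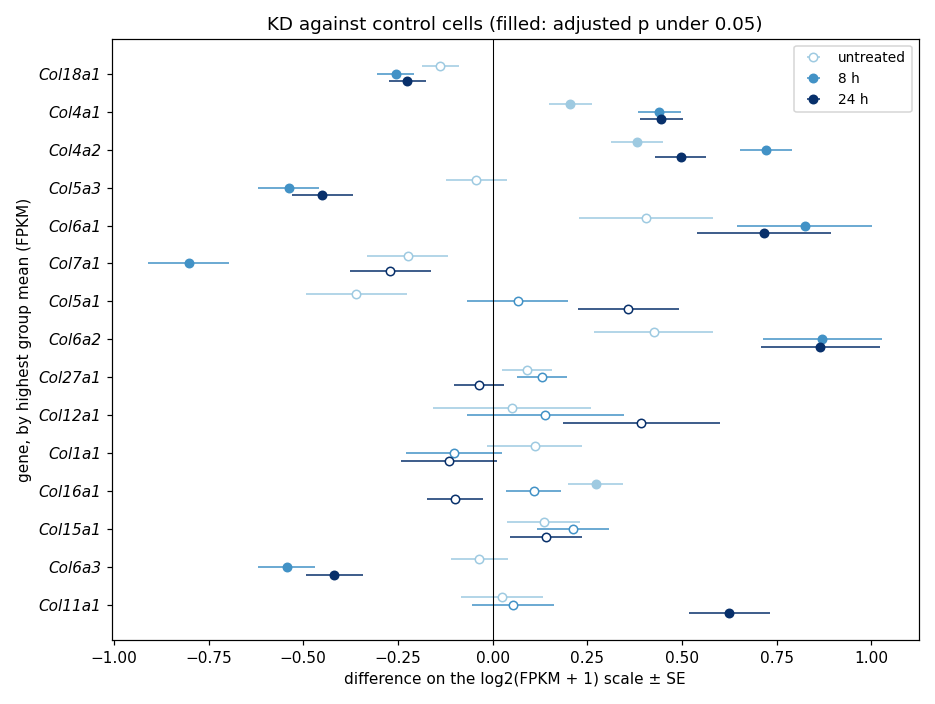
Difference between KD and control cells on the log2(FPKM + 1) scale, with its SE, for the 15 tested collagen genes in untreated cells and at 8 h and 24 h, with filled points at an adjusted p under 0.05. Col4a1, Col4a2, Col6a1 and Col6a2 lay above 0 and Col18a1, Col5a3, Col7a1 and Col6a3 below 0 at all 3 times, with all 8 filled at 8 h.

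Whether KD changed the response itself was asked of the difference between the 2 rises. At 8 h the rise on the log2(FPKM + 1) scale was smaller in KD than in control cells for 2 of the 15 genes and larger for none. They were Col5a3 (-0.50 ± 0.11, adjusted p = 0.0498) and Col6a3 (-0.51 ± 0.11, adjusted p = 0.041), beside 4.06% of all genes called, 2.45% higher and 1.61% lower. Taken as a ratio of FPKM, the rise of Col5a3 was the larger one in KD cells, whose untreated level was lower. Col6a3 was tested only because control libraries at 8 h reached 1 FPKM, and without a filter its adjusted p was 0.038 and that of Col5a3 0.0805. With 0.1 in place of 1 added before the logarithm, the values were -0.25 for Col5a3 and -0.78 for Col6a3 and neither passed the test (adjusted p = 0.38 and 0.17). At 24 h limma called none of the 15 genes, beside 4.72% of all genes, 2.73% higher and 1.98% lower, and 6 of the 15 had an unadjusted p under 0.05. The other chains cannot be said to have responded differently in KD cells. The contrasts of one table share their untreated libraries, and control libraries enter both the KD comparison and the difference in response.

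The machinery that makes and receives collagen was read from 4 lists, whose counts in parental cells at 24 h stand beside 33.4% of all genes called higher and 37.1% lower. Of genes for hydroxylation, glycosylation and folding of the chains, 9 of 12 tested rose in parental cells at 24 h and none fell, with a median difference of 0.49. Plod2, a lysyl hydroxylase that sets the type of crosslink, went from a mean of 10.2 FPKM to 72.4 FPKM (2.72 ± 0.11, adjusted p = 1.8e-06). P4hb, the shared subunit of prolyl 4-hydroxylase, and Ppib, a prolyl isomerase, rose by 0.29 ± 0.04 and 0.24 ± 0.04 (adjusted p = 0.00085 and 0.0018). Of chaperone and export genes, 7 of 9 rose and 2 fell. Serpinh1, the collagen chaperone Hsp47, rose from 85.7 to 173 FPKM (1.01 ± 0.04, adjusted p = 1.2e-06), Sec13, a coat protein of the export vesicles, rose by 0.38 ± 0.04, and Ctage5, a cargo receptor subunit, fell by 0.63 ± 0.04.

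Of genes for propeptide removal and crosslinking, 6 of 7 rose and 1 fell, beside the same 33.4% and 37.1% of all genes. Bmp1, the protease that removes the C-propeptide, rose from 19.4 to 94.8 FPKM (2.23 ± 0.06, adjusted p = 6.7e-07) and its enhancer Pcolce2 from 19.8 to 95.03 FPKM (2.21 ± 0.10, adjusted p = 3.4e-06). The related enhancer Pcolce was the one that fell, from 47.0 to 9.47 FPKM (-2.20 ± 0.08, adjusted p = 1.1e-06). Of the receptors, 3 of 4 rose and 1 fell. Itgb1, the β1 integrin chain, rose from 159.6 to 382 FPKM (1.25 ± 0.04), Ddr1, a collagen receptor kinase, rose by 0.84 ± 0.04 and Itga2, an integrin chain that binds collagen I, by 0.39 ± 0.08.

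In KD against control cells at 8 h, 9 of 12 hydroxylation genes and 5 of 9 export genes were higher and none lower, as were 1 of 8 crosslinking genes and 3 of 4 receptors, beside 19.3% of all genes called higher and 16.5% lower. P4hb had a mean of 851 FPKM in KD and 629 FPKM in control cells (0.43 ± 0.04, adjusted p = 0.00023), and Colgalt1, a galactosyltransferase of hydroxylysine, 129 and 90.5 FPKM (0.50 ± 0.06, adjusted p = 0.00063). Loxl4, a lysyl oxidase-like enzyme, was higher by 0.48 ± 0.06 (adjusted p = 0.00047), and the integrin chain Itga1 by 1.49 ± 0.13 (adjusted p = 0.00014), from a mean of 1.68 to 6.49 FPKM. The more abundant receptor chains Itgb1 and Itga2 were higher by 0.19 ± 0.05 and 0.57 ± 0.14, and Ppib by 0.18 ± 0.05. Of the export genes, Sec24d, Creb3l2 and Mia2 were higher by 0.54 ± 0.05, 0.45 ± 0.07 and 0.47 ± 0.14.

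The labelled cell type was read from its markers. Of 10 mesenchymal markers of EMT, 7 rose and 2 fell in parental cells at 24 h, beside 33.4% and 37.1% of all genes. Of 6 epithelial markers tested there, 2 rose and 3 fell. In KD against control cells 3 of 7 epithelial markers were higher and 2 lower at 8 h, beside 19.3% and 16.5% of all genes, and 3 were higher and none lower at 24 h, beside 16.8% and 11.5%. Cdh1, the gene of E-cadherin, had 51.6 and 52.1 FPKM in control and 83.1 and 84.1 FPKM in KD libraries at 8 h, and 26.8 and 27.6 FPKM against 46.6 and 60.1 FPKM at 24 h. Cldn4 lay the other way at 8 h, with 7.71 and 7.26 FPKM in control and 3.72 and 4.27 FPKM in KD libraries. Of 9 mesenchymal markers tested, 1 was higher and 2 lower in KD cells at 8 h. At 24 h 1 was higher and 1 lower, beside the same shares of all genes. The part of these marker differences in the collagen differences between KD and control cells was not tested. Of all 10 epithelial markers, Krt8, Krt18, Krt19, Cdh1 and Ocln were above 9 FPKM in every untreated library, whereas Epcam, Cldn3, Cldn4, Cldn7 and Esrp1 were under 0.4 FPKM in each of them. Some chains known from fibroblasts separated the 2 tables over all times, and others overlapped when the times were pooled. Pooled over times, Col1a1, at 2.12 to 8.57 FPKM in parental and 0.188 to 6.97 FPKM in control and KD libraries, overlapped, as did Col5a1, Col6a1 and Col12a1. At equal times Col1a1 and Col6a1 were higher in each parental library than in any control or KD library. Untreated, Col1a1 had 2.37 and 2.12 FPKM in parental libraries against 0.188 to 0.336 FPKM in the others. Col5a1 and Col12a1 separated in untreated cells and at 8 h and overlapped at 24 h. Col1a2 ranged from 1.43 to 2.22 FPKM in the 6 parental libraries and from 0 to 0.0520 FPKM in the 12 control and KD libraries, and Col3a1 from 3.48 to 4.495 FPKM and from 0 to 0.0120 FPKM. Col5a2, Col14a1 and Col4a5 showed the same, with medians of 0.326, 0.226 and 0.238 FPKM in parental and 0.0221, 0.00487 and 0.00119 FPKM in the other libraries. The summed level of 7 fibroblast markers was 3.52 to 6.402 FPKM in parental and 0.0808 to 2.02 FPKM in control and KD libraries, in which Lum and Thy1 were at 0 throughout. Thy1 was also at 0.0626 FPKM or less in parental libraries. Pdgfra, at 0.125 to 0.361 FPKM in parental libraries, was higher in the KD libraries at 8 h (0.683 and 0.668 FPKM), and Pdgfrb reached 1.04 to 1.53 FPKM in control and KD libraries at 24 h. Dcn lay at 1.13 to 1.52 FPKM in parental libraries and at 0.0823 FPKM or less in the others. Fabp4, an adipocyte marker, was above 4 FPKM in parental libraries and under 0.3 FPKM in the others, while Adipoq and Lep stayed under 0.02 FPKM in all. The 4 endothelial markers summed to 1.08 to 1.66 FPKM in parental and 0.0132 to 0.608 FPKM in the other libraries, those of leukocytes to 0.992 to 1.94 FPKM over all libraries, and those of myoepithelial cells, to 0.914 to 6.62 FPKM in parental and 1.78 to 30.7 FPKM in the other libraries, highest at 8 h, where Krt14 made up most of them. The tables were normalized separately, so these levels were set side by side without a test, and the part of other cells in the levels of Col1a2 and Col3a1 was not tested.

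Lamin B1 and accessible chromatin were read at the collagen genes from the deposited peak lists, with 1 library per time point and hence no test. Lamin B1 is a filament protein of the nuclear lamina, and its ChIP peaks mark DNA it was bound to. The paper sheared the chromatin by low sonication, which favours open chromatin (euchromatin), and fragments too large for sequencing were left out. Closed chromatin is thus poorly covered, and a gene without a peak cannot be taken as free of lamin B1. All 44 genes were placed on mm9. Genes with at least 1 bp of a peak between 2500 bp upstream of the start and the 3′ end are called lamin B1 + here. Without TGF-β 7 collagen genes were lamin B1 +, after 8 h 12 and after 24 h 6, or 15.9%, 27.3% and 13.6%, beside 19.7%, 38.6% and 29.2% of 21970 genes. Among genes with a mean of at least 1 FPKM in parental cells of the same time, the counts were 4 of 15, 8 of 17 and 3 of 17 collagen genes beside 33.9%, 57.0% and 44.5% of all genes.

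Col4a1 and Col4a2 were the pair with a lamin B1 peak over its starts at all 3 times. The peak spanned chr8:11311844-11313199 with a MACS score of 112 in untreated cells, and had a score of 132 at 8 h and 177 at 24 h. Both starts, 21 bp apart, with the shared bases printed above, lay inside it each time, so that the 2 genes share 1 observation. At 8 h alone a peak covered the starts of Col5a1 (score 155), Col18a1 (119), Col13a1 (159), Col27a1 (73.7) and Col16a1 (69.4). In untreated cells only, a peak covered the start of Col12a1 (score 72.4) and another the starts of Col4a3 and Col4a4 (50.9), which lie head to head. At 24 h only, peaks covered the starts of Col11a2 (58.2) and Col15a1 (56.8). Col2a1 and Col19a1, both under 0.1 FPKM in every library, had one at 8 h and 24 h. None of the 3 lists held a lamin B1 peak for Col5a3, Col7a1, Col6a1 or Col6a2.

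ATAC-seq marks accessible DNA by insertion of a transposase. Starts with an ATAC peak at most 500 bp away belonged to 1 collagen gene in untreated cells, to 3 at 8 h and to 10 at 24 h, beside 30.5%, 24.9% and 46.9% of all genes. The list of 24 h was the longest, with 33811 peaks against 9782 in untreated cells and 10340 at 8 h. All 10 genes with such a peak at 24 h had at least 1 FPKM in parental cells at that time (10 of 17, beside 85.6% of all genes at that level). Col7a1 had the highest score among them (358), followed by Col1a1 (289), Col5a1 (251) and Col18a1 (241), and Col5a3, with the largest rise in RNA, had a score of 68.2. In untreated cells Col18a1 alone had a peak within 500 bp of its start (score 70.7), and at 8 h Col1a1 and the pair Col4a1 and Col4a2 had one (92.2 and 52.7). Over the whole gene, 32 of the 44 had an ATAC peak at 24 h, beside 59.8% of all genes. A longer gene has more room for such a peak, and gene length was not taken into account. Near the start the share at 24 h was 22.7% of collagen genes, beside 46.9% of all genes.

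**Figure D4:**
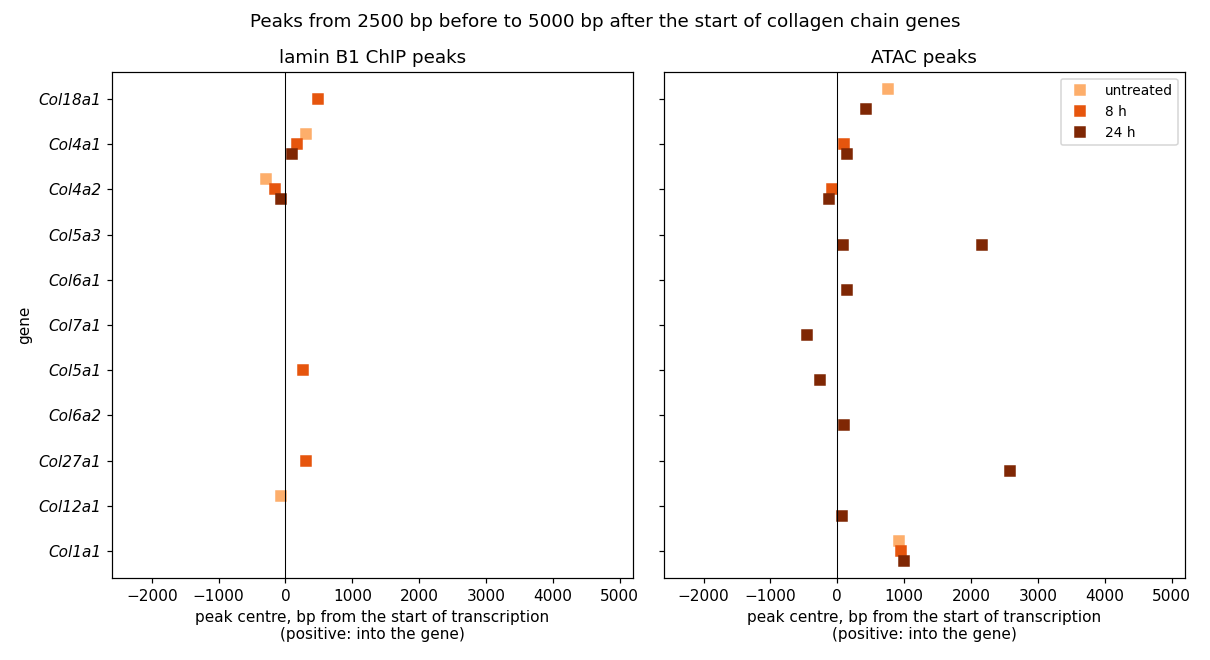
Centres of lamin B1 ChIP peaks (left) and ATAC peaks (right) in bp from the start of transcription, in a window around it, for the 11 collagen genes with a group mean of at least 5 FPKM, with a square per peak coloured by time point. Lamin B1 peaks at all 3 times appear for Col4a1 and Col4a2 only, which share them, and ATAC peaks near the start are mostly those of 24 h.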

How the data were processed

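The values are FPKM per gene and library deposited by the authors in a parental and an shRNA table. The submitters' processing notes name Bowtie, TopHat, Cufflinks and mm9, without versions. Neither table has a header, so columns followed the order named in the deposited descriptions, and Lmnb1 was lower in every KD column than in every control column of its time. Parental columns carry no replicate number. The peak lists hold positions and a MACS score, deposited by the authors. Read depth is not known from FPKM or peak lists, so no counting interval is given. Hi-C was not used here.

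Genes that reached 1 FPKM in 2 or more libraries of their table entered the test on log2(FPKM + 1) with limma 3.58.1 (R 4.3.3, trended eBayes, two-sided), with 1 fit per table over all its libraries, Benjamini-Hochberg adjusted over all genes. The paper names an unpaired two-tailed test. Fold changes of low genes are understated on this scale. The script was checked on simulated data. Peaks were overlapped by at least 1 bp in Python 3.11.15 with GENCODE M1, and sequences read from mm9. Replicate numbers did not pair the libraries over all groups (2 of 15 correlations of deviations above 0.1, range -0.14 to 0.37). The 2 were control with KD cells at 24 h (0.37) and untreated KD cells with KD cells at 24 h (0.18), so shared replicate variation at 24 h remains possible.

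Members and lists were chosen with earlier results of these data known. Every collagen gene may be named, and per-library values are given for those with a group mean of at least 5 FPKM, for lower ones where they were called or pair with these, and the 3 most abundant called genes of each pathway list in the comparisons shown. The lists are hydroxylation, export, crosslinking, receptors and 7 cell type marker lists, each given once in the results. Alternatives were an added 0.1, no filter, a filter on the mean, quantile normalization, a 2-fold minimum, a fit restricted to the compared groups, a replicate block, each library left out, peaks of at least the median score, at least 50% of a peak inside the region and only 500 bp around the start.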

Additional observations from a re-analysis of the deposited data

Results flagged for a closer look

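A test of whether KD and control cells responded unequally to TGF-β at 8 h was passed by 2 collagen genes, both with a smaller rise in KD cells on the log2(FPKM + 1) scale. For Col5a3 it was -0.50 on the log2(FPKM + 1) scale, where control libraries went from 0.0276 and 0.0425 FPKM to 8.11 and 6.69 FPKM and KD libraries from 0.00313 and 0.00543 FPKM to 4.99 and 4.54 FPKM. For Col6a3 it was -0.51, where control libraries went from 0.0756 and 0.0602 FPKM to 1.44 and 1.27 FPKM and KD libraries from 0.0481 and 0.0362 FPKM to 0.627 and 0.601 FPKM. In both the untreated levels were close to 0 and both KD libraries at 8 h lay under both control libraries. Taken as a ratio of FPKM, the rise of Col5a3 was the larger one in KD cells, whose untreated level was lower. Leaving out either control library at 8 h removes Col6a3 from the test, since only these libraries reached 1 FPKM. Col5a3 lost its call in 13 of 15 other fits and kept it in 2, quantile normalization (adjusted p = 0.043) and without the second untreated control library (adjusted p = 0.046). Col6a3 lost it in 8 of 12 and kept it in 4, adjusted p between 0.018 and 0.038. No group held 4 or more samples, so no library was tested as an outlier.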

How the results depend on the processing

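Counts of called collagen genes moved most in the small contrasts. With a minimum change of 2-fold, 4, 7 and 4 genes were called in parental cells at 8 h, at 24 h and between them, 8 in control cells at 8 h, 7 in KD cells at 8 h, and 0 in KD against control cells at each time and in the difference of responses at 8 h. For KD against control in untreated cells (3 genes called), adding 0.1 before the logarithm gave 6 genes (3 higher and 3 lower), no filter 1 and a fit restricted to both groups 1. At 24 h (8 genes called) the restricted fit gave 3, and the calls of Col6a1, Col6a2, Col11a1 and Col18a1 were among those lost. For the difference of responses at 8 h (2 genes), an added 0.1 gave 0, no filter 1, a filter on the mean 0 and the restricted fit 4. At 24 h (0 genes), an added 0.1 gave 1, no filter 3 and quantile normalization 2. In control cells at 24 h (12 genes) no filter gave 21. Leaving out single libraries gave 0 to 2 genes for KD against control in untreated cells, 0 to 2 for the difference of responses at 8 h and 0 to 5 at 24 h. Without the second KD library at 24 h, 9 genes were called in KD against control cells at 24 h and 4 in the difference of responses. The replicate block gave 0 genes for the difference of responses at 8 h and moved no other count by over 1.5 times. Replicate numbers did not pair the libraries over all groups, and parental columns have none. For peaks at or above the median score, 7 collagen genes had a lamin B1 peak at 8 h, and 0, 1 and 4 had an ATAC peak near the start without TGF-β, after 8 h and after 24 h. With at least 50% of the peak inside, 0 did in untreated cells. Of 1139 alternative values of 109 called gene changes, 997 kept the call, 142 did not and 0 changed direction. Apart from the 2-fold minimum, 90 changes kept the call in all alternatives in which their gene could be tested. Not every change could be tested in each alternative. The filter on the mean tested 97 of the 109, and the fit restricted to the compared groups tested 102. The causes of these shifts were not tested. With 2 libraries per group and depth unknown, differences that missed the threshold may still exist.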
